A study of Mus musculus with 8 samples.

Results

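The genes that start autophagy and the ATG8 family were followed on arrays of C2C12 myoblasts in which the long non-coding RNA Pvt1 had been silenced. The members were 10 genes (Ulk1, Ulk2, Becn1, Pik3c3, Atg5, Map1lc3a, Map1lc3b, Gabarap, Gabarapl1 and Gabarapl2), taken as every probe that carried one of these names in the array design. That gave 20 of the 56605 probes on each array, and 18 of them were among the 28649 probes with enough values to be tested. C2C12 is a mouse myoblast line, and all 8 cultures were proliferating cells at passage 10, each labelled as a separate biological replicate. The 4 silenced cultures had received Lipofectamine 2000 with antisense LNA GapmeRs against Pvt1, short oligonucleotides that lead RNase H to cut the transcript they bind. The 4 control cultures had received the same transfection reagent with Antisense LNA GapmeR Negative Controls. No culture without transfection was among the arrays. As a single cell line at a single passage, the cultures show myoblasts in vitro and no muscle fibre.

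Autophagy delivers cell contents to the lysosome inside a double membrane, the autophagosome, and in skeletal muscle it serves both protein turnover and the loss of mass in atrophy. The ULK kinases receive the starvation signal and activate a lipid kinase complex in which Becn1 binds the catalytic subunit Pik3c3. The growing membrane is then coated with LC3 and GABARAP proteins, ubiquitin-like proteins that are joined to lipid with the help of Atg5.

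The labels give the GapmeRs as Pvt1_1 and Pvt1_3. They are shown because they define the treatment, and the labels do not say whether a given silenced culture received one of them or both.
Pvt1_1: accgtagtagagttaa
Pvt1_3: agtcaacgcttcacat
No probe of the array held the full 16-base complement of either. The longest run of bases complementary to Pvt1_1 in any probe of the 10 genes was 6 bases, and that for Pvt1_3 was 8 bases. Only the bases of the probes were searched, so sites elsewhere in the transcripts could not be found.

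Because probes of one gene did not move together, the sequences read by the arrays are part of the result. The Becn1 probe and the upstream probes of Ulk1 and Map1lc3b are shown whole, each of 60 bases. These 3 probes have at least 1 reading frame with no stop codon, as do the downstream probes of Ulk1, Ulk2, Map1lc3b and Gabarapl1.
Becn1, transcript base 1095: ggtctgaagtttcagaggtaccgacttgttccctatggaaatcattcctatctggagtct
Ulk1, transcript base 3132: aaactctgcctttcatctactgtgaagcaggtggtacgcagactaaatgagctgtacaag
Map1lc3b, transcript base 191: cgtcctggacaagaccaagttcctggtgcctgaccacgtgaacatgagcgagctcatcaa
The last 30 bases are shown for the tested Ulk1 probe, the Map1lc3a probe, both Ulk2 probes, both Gabarapl1 probes and the brightest Map1lc3b probe. The remaining probes, among them those of Gabarap and Gabarapl2, are not shown. Capitals mark a polyadenylation signal, AATAAA, which lies near the 3′ end of many mRNAs.
Ulk1, transcript base 5130: tcatatcagtttaagaaAATAAAaattgga
Ulk2, transcript base 3581: tagcactgcaactgtgtgagtagcaggctt
Ulk2, transcript base 3831: ggctcaagttatttgaacctggcaaataat
Map1lc3a, transcript base 670: gtggattaggcagagatgtgacacccactc
Map1lc3b, transcript base 551: tccatgcaagtgcactcagcttggaaactc
Gabarapl1, transcript base 774: ggaagaacttgtgttgcattggctgtgaga
Gabarapl1, transcript base 1677: gttctggtactttgaagtcaatgctgtcag
The Ulk1 probe was the only one of the 18 tested probes of these genes (5.56%) with AATAAA or ATTAAA, against 14.9% of all tested probes.

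Some facts of the whole series bear on these genes. Pvt1 fell by 2.86 on the log2 scale (SE 0.32, limma adjusted p 0.000682), to 13.8% of the control signal. Silenced replicate 4 was the dimmest array, with 51.6% of spots positive and significant against 58.8% to 62.5% on the other 7. Control replicate 3 correlated least with its own group (mean 0.964, and 0.978 to 0.983 on the other arrays). Of 6 myoblast genes, 5 were well above background on all arrays and Myf5 was on none, and their summed signal ran from 165279 to 182733 in controls and from 119110 to 146984 after silencing. The 6 genes of differentiated muscle summed to 3771 to 4751 and 1995 to 2389. Acta1 ran from 2144 to 2923 in controls and from 511 to 983 after silencing, while the mean log2 signals of Myog (7.31 and 7.76) and Tnnt3 (8.41 and 8.47) were not lower. A list of 10 liver genes summed to 903 to 1746 and 3939 to 5155. Alb, Mup1, Fgb and Ahsg were well above background on the 4 silenced arrays and on no control array. Ttr and Ambp were on 3 silenced arrays and on no control array, while Apoa1, Apoc3 and Fga were on none. Apoa2 was well above background on all arrays, and ran from 736 to 1567 in controls and from 885 to 1625 after silencing. The part of these differences in the results that follow was not tested. In RNA from whole cultures, fewer cells and less RNA per cell cannot be told apart.

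The first question was which of the 10 genes changed when Pvt1 was silenced. Values are log2 normalized intensity, a change is the silenced mean minus the control mean, and a probe is called at a limma adjusted p under 0.05. Of the 18 tested probes 4 were called lower, in Becn1, Ulk2, Map1lc3a and Map1lc3b, and none was called higher. Lower calls made up 18.4% of all tested probes and higher calls 4.79%, so calls in either direction made up 23.2%, beside 22.2% of these 18 probes. The groups did not overlap for 5 probes, and the background share without overlap was 28.2%. The median change of the 18 was -0.26 and that of all tested probes -0.19, with 9 of the 18 above the latter and 9 below. The share of these probes called was thus close to that of the whole array.

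The direction of the calls depended on how the arrays were scaled and masked. Under 21 alternatives, all calls were lower in 9, both directions occurred in 9, all calls were higher in 2, and 1 gave no call. Centring each array on its median gave 5 higher and 3 lower, and cyclic loess 4 higher and 3 lower. Leaving dim spots unmasked, with the scaling kept, gave 4 higher and none lower, as did the authors' series table, which differs in both. The medians of all probes under these 4 settings were 0.08, 0.02, 0.01 and 0.01. With the row of the slide as a block, which held 3 control arrays and 1 silenced array in one row and the reverse in the other, none of the 18 was called.

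**Figure D1:**
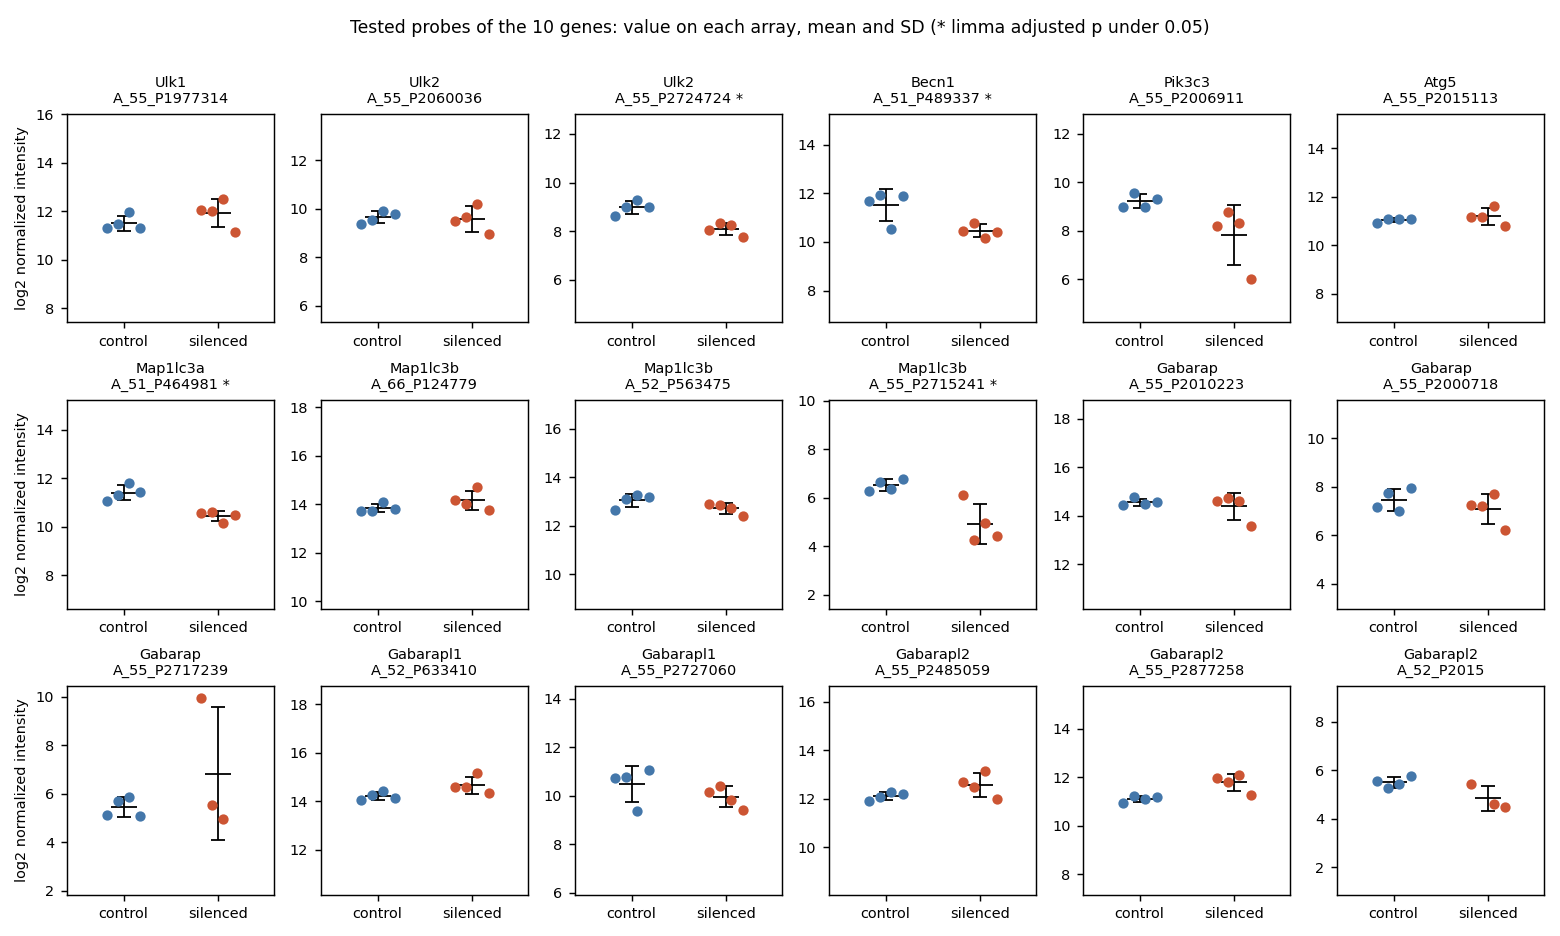
Log2 normalized intensity (vertical axis, 1 scale length for all panels) of the 18 tested probes on the 4 control arrays (blue, replicates 1 to 4 from left to right) and the 4 silenced arrays (red). Black bars are the mean and SD, and an asterisk marks the 4 probes with a limma adjusted p under 0.05, all of them lower in silenced cells.

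Among the ULK kinases, which phosphorylate the Becn1 complex, a probe of Ulk2 fell and the tested probe of Ulk1 was not called. The upstream Ulk2 probe (A_55_P2724724, chromosome 11, 61591272 to 61591331, minus strand, build mm9) read 8.64, 8.98, 9.26 and 9.0 on control arrays. On silenced arrays it read 8.03, 8.35, 8.23 and 7.77. Every silenced array was below every control array. The change was -0.88 (SE 0.22, limma adjusted p 0.0184), or -0.68 relative to the median of all probes, which left 54.5% of the control signal. Within the rows of the slide it was -0.94 and -0.88.

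The downstream Ulk2 probe (A_55_P2060036, 61591022 to 61591081) lay 250 bases further along the same transcript. It read 9.38, 9.52, 9.91 and 9.77 on control arrays and 9.50, 9.67, 10.19 and 8.93 on silenced arrays, which overlapped. Its change was -0.07 (SE 0.28, limma adjusted p 0.885). Under the alternatives this probe lay between -0.28 and 0.23, and the upstream probe between -0.99 and -0.56. The upstream call was lost with the authors' series table (0.0528), without masking (0.0669), with the row block (0.0728), and when control replicate 2 (0.0600), control replicate 4 (0.0634) or silenced replicate 1 (0.0555) was left out.

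Ulk1 is the kinase most closely tied to the start of autophagy. Its probe with the polyadenylation signal (A_55_P1977314, chromosome 5, 111213514 to 111213573) read 11.29, 11.46, 11.95 and 11.31 on control arrays. On silenced arrays it read 12.03, 12.01, 12.52 and 11.14. Of the silenced arrays 3 were above every control array and replicate 4 was below them. The change was 0.42 (SE 0.31, limma adjusted p 0.355). With arrays centred on their median it was 0.71 and was called (0.0229). Without control replicate 3 and silenced replicate 4, a setting chosen after the data were seen, it was 0.83 and was called (0.0118). The upstream Ulk1 probe (A_55_P2736170) was well above background on none of the arrays and was not tested.

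Becn1, the scaffold of the lipid kinase complex, was called lower at its only probe. This probe (A_51_P489337, chromosome 11, 101151771 to 101152713, minus strand) spans 943 bases of the genome for its 60 bases. It read 11.68, 11.95, 10.54 and 11.88 on control arrays and 10.47, 10.79, 10.14 and 10.42 on silenced arrays. Control replicate 3 lay among the silenced arrays, and the other 3 controls were above all of them. The control mean of 11.51 ± 0.66 (SD, n = 4) compared with 10.46 ± 0.27 (SD, n = 4) after silencing, a change of -1.06 (SE 0.32, limma adjusted p 0.042), or 48.0% of the control signal. It was -0.92 in one row of the slide and -1.43 in the other. The change was negative in all 21 alternatives, from -1.37 to -0.77, and called in 9 of them. Without control replicate 3 it was -1.37 (limma adjusted p 0.00317), whereas leaving out any other single array gave an adjusted p from 0.0527 to 0.124.

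Pik3c3, the lipid kinase itself, had 1 probe (A_55_P2006911, chromosome 18, 30484212 to 30484271). It read 8.99, 9.58, 8.99 and 9.32 on control arrays and 8.19, 8.80, 8.33 and 6.04 on silenced arrays. All silenced values were below all control values, and replicate 4, where the probe was not well above background, was far below the rest. The change of -1.38 (SE 0.52) was not called (limma adjusted p 0.0848). Without silenced replicate 4 it was -0.79 and was called (0.0344). Over the alternatives it lay between -1.70 and -0.79 and was called in 5 of 21.

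Atg5, part of the machinery that joins ATG8 proteins to lipid, differed little. Its probe (A_55_P2015113, chromosome 10, 44083997 to 44084056) read 10.94, 11.09, 11.10 and 11.09 on control arrays. On silenced arrays it read 11.19, 11.19, 11.63 and 10.79. Replicates 1 to 3 of the silenced group were above every control and replicate 4 below. The change was 0.15 (SE 0.22, limma adjusted p 0.674), and it was called only with the authors' series table (0.34, 0.039) and without masking (0.34, 0.0438).

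The LC3 genes encode the ATG8 proteins most used as markers of autophagosomes. Map1lc3a fell. Its probe (A_51_P464981, chromosome 2, 155103435 to 155103494) read 11.07, 11.29, 11.80 and 11.44 on control arrays and 10.56, 10.63, 10.18 and 10.47 on silenced arrays. The groups did not overlap, and the SD of the silenced arrays was 0.20 (n = 4). The change was -0.94 (SE 0.22, limma adjusted p 0.0138), which left 52.0% of the control signal. It was negative in all 21 alternatives, from -1.07 to -0.66, and called in 15. Settings that ended the call included centred arrays (0.0762), the authors' series table (0.0554), no masking (0.0726), the row block (0.0711) and leaving out control replicate 4 (0.0507).

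Map1lc3b had 3 tested probes that moved apart. The brightest (A_66_P124779, chromosome 8, 124120787 to 124120846) read 13.72, 13.72, 14.09 and 13.78 on control arrays and 14.16, 14.01, 14.70 and 13.75 on silenced arrays, with overlap and a change of 0.33 (SE 0.24, limma adjusted p 0.355). The probe 360 bases upstream in the same transcript (A_52_P563475, 124119924 to 124119983) read 12.67, 13.11, 13.26 and 13.20 on control arrays. On silenced arrays it read 12.90, 12.87, 12.72 and 12.39, a change of -0.34 (SE 0.22, limma adjusted p 0.296). Neither passed the test. The third (A_55_P2715241, 124116650 to 124116709), assigned to another transcript (ENSMUST00000181826), was called lower (limma adjusted p 0.0147). It was well above background on all 4 control arrays and on no silenced array, so only a bound can be given, a control signal at least 1.29-fold that of silenced cells.

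The GABARAP genes encode the other branch of the family, linked to late steps of autophagosome formation. None of their 8 tested probes was called, and the median change was 0.13. Gabarapl2 had the change nearest the threshold. Its upstream probe (A_55_P2877258, chromosome 8, 114476553 to 114476612) read 10.95, 11.23, 11.11 and 11.19 on control arrays and 11.97, 11.82, 12.08 and 11.28 on silenced arrays. Every silenced array was above every control array. The change was 0.67 (SE 0.22, limma adjusted p 0.0557), or 0.86 relative to the median of all probes. It was positive in all 21 alternatives, from 0.56 to 0.95, and called in 11, among them cyclic loess (0.80, 0.00197) and the authors' series table (0.84, 0.000403).

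The second Gabarapl2 probe (A_55_P2485059), 171 bases downstream, changed by 0.45 (SE 0.26, limma adjusted p 0.239) and was called in 6 of 21 alternatives. The probe A_52_P2015 was at background on all arrays (none well above it), and A_55_P2719199 had no value on any array. For Gabarapl1, the downstream probe (A_52_P633410, chromosome 6, 129492254 to 129492313) read 14.07, 14.28, 14.44 and 14.16 on control arrays. On silenced arrays it read 14.58, 14.60, 15.17 and 14.34. Of these 3 were above every control array and replicate 4 was not, and the change of 0.43 (SE 0.23) was not called (limma adjusted p 0.195) but was in 6 of 21 alternatives. The upstream Gabarapl1 probe (A_55_P2727060, 129491351 to 129491410) changed by -0.52 (SE 0.38, limma adjusted p 0.354). Control replicate 3 read 9.37 there against 10.72 to 11.04 on the other control arrays, and without it the change was -0.88 and was called (0.0394).

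Gabarap itself showed no call in any alternative. Its bright probe (A_55_P2010223, chromosome 11, 69808343 to 69808402) read 14.45 to 14.76 on control arrays. Silenced replicates 1 to 3 read 14.61 to 14.76 and replicate 4 read 13.58, so the change of -0.18 (SE 0.28, limma adjusted p 0.69) turned to 0.094 without that array. A dimmer probe (A_55_P2000718) changed by -0.35 (SE 0.34, limma adjusted p 0.50). A further one (A_55_P2717239) was well above background on 1 array only, silenced replicate 1, where it read 9.97 against 4.97 to 5.89 on the other arrays with a value.

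**Figure D2:**
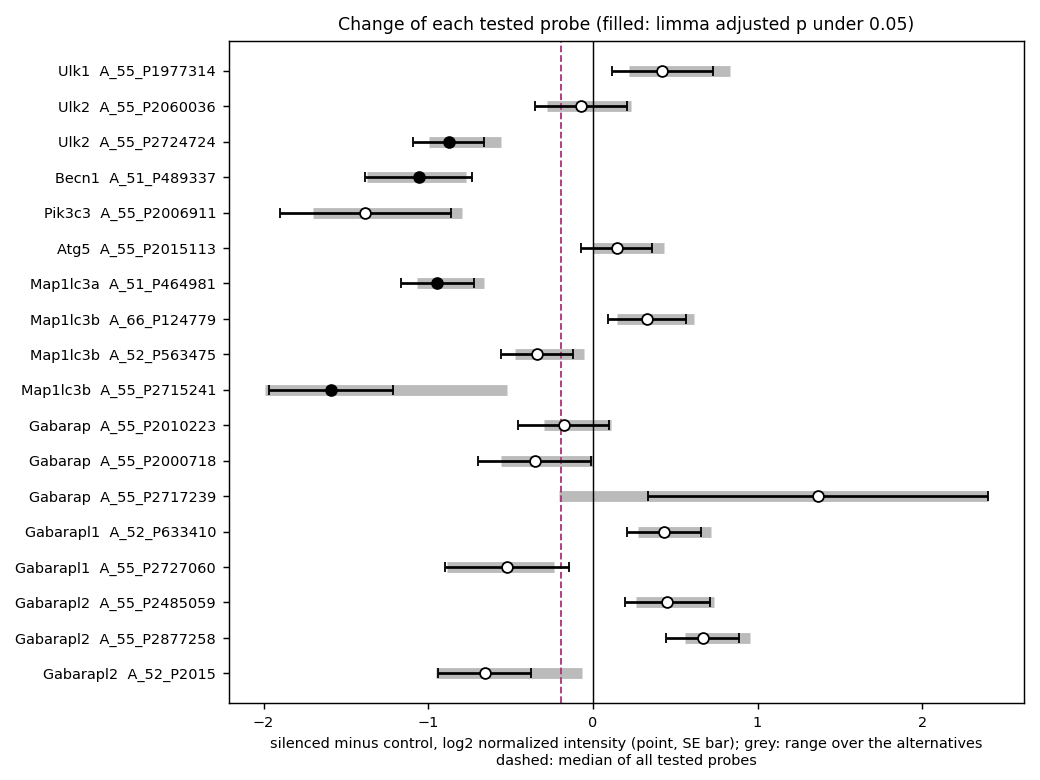
Change of each tested probe, silenced minus control in log2 normalized intensity (horizontal axis), with its SE, ordered by the role of the gene. Filled points passed a limma adjusted p of 0.05, grey bars span the alternatives, and the dashed line is the median of all tested probes, -0.19. The bars of the downstream Ulk2 probe and the Gabarap probes cross 0. Those of Becn1, Pik3c3, Map1lc3a, the upstream Ulk2 probe and the dimmer Map1lc3b probes stay below it. So do those of the upstream Gabarapl1 probe and the dimmest tested Gabarapl2 probe. The bars of Ulk1, Atg5, the brightest Map1lc3b probe and the bright Gabarapl1 and Gabarapl2 probes stay above it.

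Since probes of one gene gave different answers, the difference between the outermost tested probes, 5′ minus 3′, was taken within each array for the 5 genes that had them. This value does not change when an array is scaled by a factor. For Ulk2 it was -0.74, -0.53, -0.65 and -0.76 on control arrays and -1.47, -1.32, -1.96 and -1.16 on silenced arrays. The groups did not overlap. The 5′ probe fell by 0.80 more than the 3′ probe (exact two-sided permutation p 0.0286, the smallest possible, adjusted 0.048 over 5 genes). The unadjusted exact permutation p was 0.0286 in 17 of 18 alternatives and 0.1, the smallest possible, with 3 arrays a group. Adjusted over the genes, it stayed under 0.05 in 9 of the 18 and reached 0.143. The adjusted value rests on pairs of Map1lc3b and Gabarapl2 in which 1 probe was not well above background in a group. Over the 4 pairs that lie on one transcript, all of whose probes were well above background on all 8 arrays, the adjusted exact permutation p for Ulk2 was 0.0571, a value computed after the data were seen.

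For Map1lc3b the outermost pair differed by -1.92 (exact permutation p 0.0286, adjusted 0.048), but its 5′ probe was not well above background in silenced cells. The pair on one transcript was added after the data were seen. It gave -1.05, -0.61, -0.82 and -0.58 on control arrays and -1.26, -1.15, -1.97 and -1.36 on silenced arrays. These did not overlap, and the change of the 5′ probe was lower by 0.67 than that of the 3′ probe (exact permutation p 0.0286, adjusted 0.0571 over the 4 pairs on one transcript). For Gabarapl1 the difference was -0.96 (exact permutation p 0.114, adjusted 0.143), with control replicate 3 at -5.07 against -3.53 to -3.12 on the other control arrays. Without that array it was -1.39 (exact permutation p 0.0286, adjusted 0.0714).

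Gabarapl2 differed in the other direction, by 1.31 (exact permutation p 0.0286, adjusted 0.048, 3 silenced arrays), but on no array was its 3′ probe well above background. Its pair on one transcript differed by 0.22 (exact permutation p 0.114). Gabarap differed by -0.18 (exact permutation p 0.457). Beside these, 3976 RefSeq transcripts had tested probes at least 60 bases apart. The change was lower at the 5′ probe than at the 3′ probe in 80.3% of them, and the median difference was -0.61. Among the 1999 with probes up to 1000 bases apart it was lower at the 5′ probe in 86.9%. The differences in Ulk2 and Map1lc3b therefore had the direction of most transcripts on the array, and the part of RNA quality or labelling was not tested. Becn1 and Map1lc3a were each read by a single probe, so no such difference could be taken for them.

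**Figure D3:**
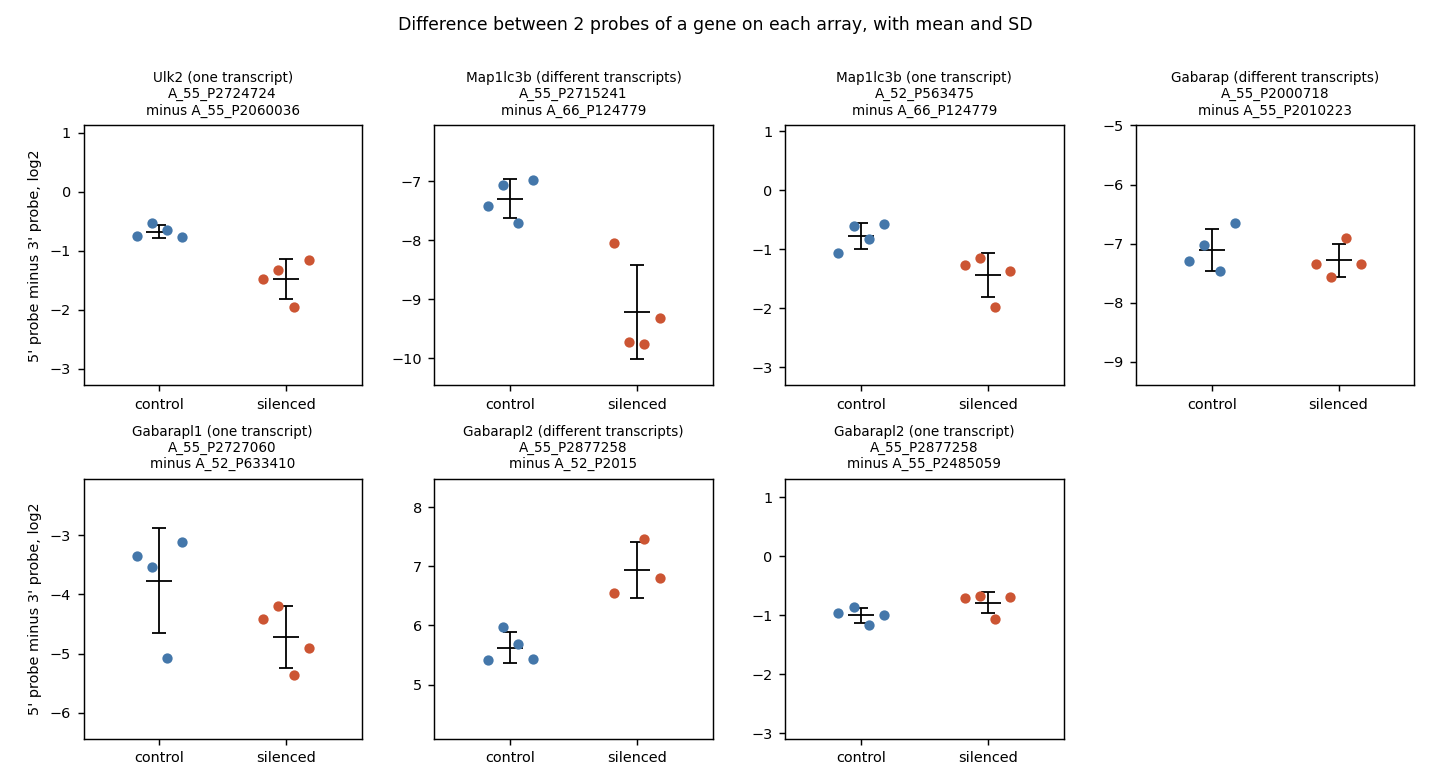
Log2 signal of the 5′ probe minus that of the 3′ probe on each array (vertical axis) for 7 pairs of probes, with control arrays in blue, silenced arrays in red, and the mean and SD in black. Groups are apart for Ulk2, for both pairs of Map1lc3b and for the Gabarapl2 pair on different transcripts, and overlap in the others.

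The probes most like Becn1 in their pattern over the 8 arrays were those of Ugcg, Atp6ap1 and Trp53, with Pearson correlations of 0.998, 0.996 and 0.996, the highest among 14982 probes that were well above background on all arrays. Ugcg encodes a glucosyltransferase of sphingolipid synthesis, Atp6ap1 an accessory subunit of the proton pump that acidifies lysosomes, and Trp53 the p53 protein. Their changes were -1.39, -1.06 and -1.38, against -1.06 for Becn1. The correlations describe 8 arrays that share the 2 groups and the low control replicate 3.

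The other genes of the pathway were read from a list of 49, each by its brightest tested probe. Of these 2 were called higher and 4 lower (12.2%, beside 23.2% of all tested probes), and the median change was -0.02. The calls were in the cargo receptors (2 of 8 genes lower), the genes of the isolation membrane (1 of 11 higher, 1 lower) and the BCL2 family (1 of 3 higher, 1 lower). By the brightest probe none was called among 3 genes of the ULK complex, 6 of the lipid kinase complex, 10 of the conjugation machinery and 8 upstream regulators. Over all 50 tested probes of these 27 genes 9 were called, all lower (18%, beside 23.2% of all tested probes), in Rb1cc1, Ambra1, Atg7, Atg4b, Prkaa1, Tfeb and Foxo3. These counts also depended on scaling and masking, with 16 higher and 5 lower under cyclic loess, 15 higher and 5 lower without masking, and 13 higher and 5 lower with the authors' series table.

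Of the BCL2 family, whose members bind Becn1 and hold it inactive, the brightest probes of Bcl2 and Bcl2l1 moved in opposite directions. Bcl2 (A_51_P380013) read 8.81, 9.11, 9.38 and 9.17 on control arrays and 8.16, 8.26, 8.19 and 7.62 on silenced arrays. It fell by 1.06 (SE 0.22, limma adjusted p 0.00905) without overlap. Bcl2l1 (A_55_P1974877) read 12.69, 13.02, 13.17 and 12.90 on control arrays and 13.87, 14.08, 14.11 and 13.51 on silenced arrays, and rose by 0.95 (SE 0.21, limma adjusted p 0.0119), also without overlap. With the row of the slide as a block the changes were -1.04 and 0.96 and neither was called (limma adjusted p 0.0508 and 0.0593). Further probes disagreed. A Bcl2 probe nearer the 3′ end (A_52_P534870) changed by 0.09 (limma adjusted p 0.896), and a dimmer Bcl2l1 probe (A_66_P122989) fell by 1.38 (limma adjusted p 0.031). The third gene, Mcl1, changed by 0.04 at its brightest probe. Its other probe (A_51_P238786) changed by -0.39 without overlap and was not called (limma adjusted p 0.152).

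Atg9b, a membrane protein that supplies lipid to the growing autophagosome, had the largest rise of the list. It read 8.48, 8.60, 7.91 and 8.80 on control arrays and 10.43, 10.27, 10.68 and 9.66 on silenced arrays. The groups were apart, and the change was 1.81 (SE 0.28, limma adjusted p 0.00247). It was called in all 22 alternatives, from 1.55 to 2.12. A second, upstream Atg9b probe changed by -0.18 (limma adjusted p 0.762).

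Atg2b, which transfers lipid into the membrane, fell by 1.28 (SE 0.24, limma adjusted p 0.00524), while its other probe, well above background on 3 arrays of each group, changed by 0.16. The cargo receptors Calcoco1 and Tax1bp1, which bring ubiquitin-marked or membrane cargo to ATG8 proteins, fell by 1.30 (SE 0.26, limma adjusted p 0.00729) and 1.28 (SE 0.25, limma adjusted p 0.00628). Tax1bp1 read 12.68 to 12.84 in controls and 11.11 to 12.14 after silencing, and Calcoco1 8.28 to 8.5 and 6.64 to 7.65. Both were called in all 22 alternatives. A second Calcoco1 probe, well above background on 1 array only, changed by 0.79 (limma adjusted p 0.241). A second Tax1bp1 probe fell by 1.22 (limma adjusted p 0.00495) and the most upstream changed by -0.33 without a call.

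**Figure D4:**
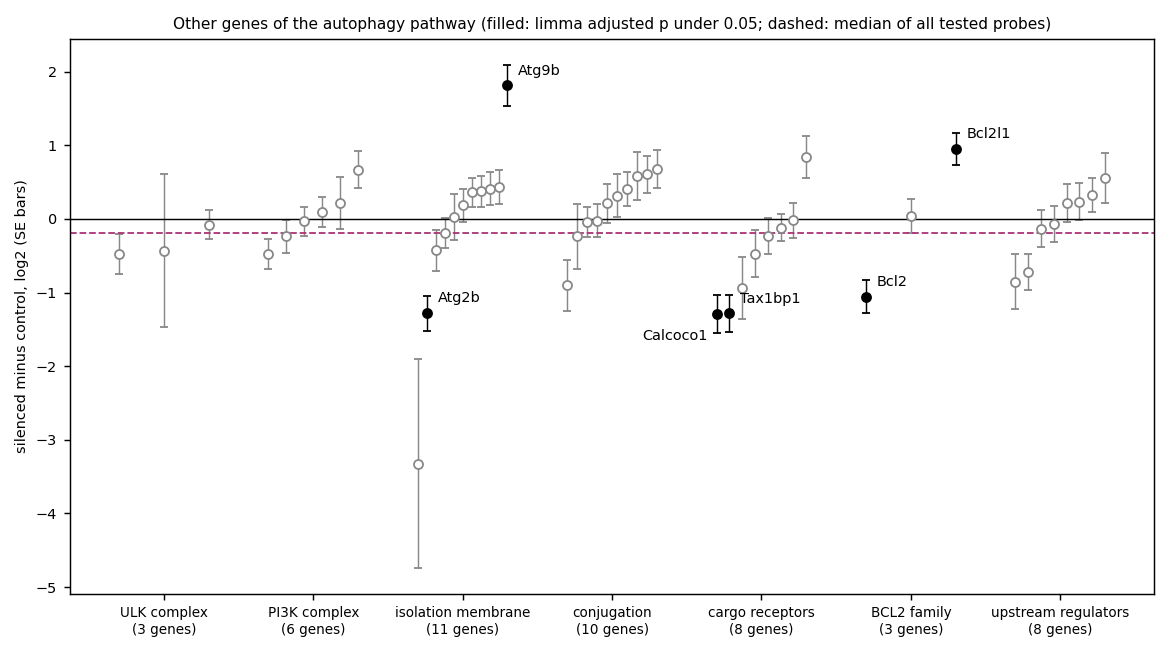
Change of 49 other autophagy genes, silenced minus control in log2 normalized intensity (vertical axis), each by its brightest probe with the SE, grouped by role. Filled, named points passed a limma adjusted p of 0.05, with Atg9b and Bcl2l1 higher and Atg2b, Calcoco1, Tax1bp1 and Bcl2 lower, and the dashed line is the median of all tested probes.

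Counted over every tested probe of the list, 3 of 98 were called higher and 21 lower (24.5%), a share close to the 23.2% of all tested probes. Sqstm1, the p62 cargo receptor, was chosen here after its values were seen. Its probe at transcript base 1090 read 14.05, 14.25, 14.21 and 14.32 on control arrays and 12.23, 12.71, 11.91 and 12.19 on silenced arrays, and fell by 1.95 (SE 0.22, limma adjusted p 0.000673). Its brightest probe, at base 1954, read 15.83 to 16.19 and 15.75 to 15.99, and changed by -0.12 (limma adjusted p 0.681). No array carried the scanner's saturation flag at either probe. A further probe, at base 2613, read 7.37, 7.71, 8.16 and 7.69 on control arrays and 6.14, 6.50, 6.18 and 6.20 on silenced arrays, and was well above background on 4 control arrays and 1 silenced array. It fell by 1.48 (SE 0.22, limma adjusted p 0.00204). The groups were apart at bases 1090 and 2613 and overlapped at the brightest probe, which lies between them.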

How the data were processed

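Cy3-labelled RNA from 8 cultures was hybridised to 1 array each of 1 Agilent slide. The deposited scanner files hold spot intensity, written per the file headers by Feature Extraction 12.0.0.7, while the submitters' processing notes name 10.7.3.1. The authors' software subtracted background to give the processed intensity. Flags (0 or 1) for positive, well above background and outlying spots were read from the deposited files. A series table of processed intensity, made by the authors, was a further source.

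As in the study's methods, spots not positive and significant were masked. Control and outlying spots were left out, a choice made here. The log2 values of the deposited intensities were quantile normalized and averaged per probe. Each probe measured on 3 or 4 arrays of both groups entered a limma 3.58.1 fit (lmFit, then eBayes, in R 4.3.3), two-sided, with group as the only term and Benjamini-Hochberg adjustment over 28649 probes. Pairs of probes were compared with an exact two-sided permutation test over the arrays. Where no array of a group was well above background, a probe's fold is given as a bound.

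The members and lists were chosen with earlier results of these data known. The pathway genes named were, per direction, the 3 called genes with the largest change whose probe was well above background on all arrays, plus Bcl2 and Bcl2l1, and for likeness to Becn1 the 3 highest Pearson correlations. All 49 pathway genes matched the array design, 1 of them through a synonym. Gene names and coordinates come from the array files (build mm9), and exon or UTR position was not analysed here. Signal of different probes is not compared as a level. The alternatives comprised median centring, cyclic loess, scaling to the 75th percentile, the authors' series table, normexp (offset 50), other masks, complete probes, a robust trended prior, the replicate number or slide row as a block, the probe nearest the 3′ end and leaving out arrays. The number of arrays limits the precision. Figures were drawn with matplotlib 3.10.9.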

Additional observations from a re-analysis of the deposited data

Results flagged for a closer look

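In 67 groups of 4 values, 9 held a value set apart from the other 3 by Dixon's test, and chance alone sets apart about 1 in 20 groups. Silenced replicate 4 accounted for 4 of them. It had 51.6% of spots positive and 36.8% well above background (42.6% to 43.2% on the other silenced arrays). It was also low for Gabarap (13.58 against 14.61 to 14.76) and for Bcl2 (7.62 against 8.16 to 8.26). Control replicate 3 accounted for 2, a mean correlation of 0.964 with its group (0.981 on the others) and a Map1lc3b value of 14.09 (13.72 to 13.78). Control replicate 1 was low for Atg5 (10.94 against 11.09 to 11.10) and Tax1bp1 (12.68 against 12.82 to 12.84). Silenced replicate 3 had a difference of -1.06 between the Gabarapl2 probes of one transcript, against -0.71 to -0.67.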

How the results depend on the processing

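The counts of calls depended on the scaling, the mask, the block and the arrays used. Of the 4 member probes called among 18, a shift to the 75th percentile made 7, cyclic loess 7, centred arrays 8 and the slide row block 0. The replicate block gave 3 and ended the call of Map1lc3a (limma adjusted p 0.0505). Same-numbered arrays of the groups deviated with correlations of -0.04, 0.19, 0.22 and 0.06, and 2 of 4 controls correlated best with their own number, so the samples were not taken as paired. Leaving out 1 array gave 1 to 6, lowest without control replicate 4, and leaving out control replicate 3 together with silenced replicate 4 gave 10. That last setting was chosen after the data were seen. Of all probes, 6642 were called (79.3% of them lower), and 10674 with cyclic loess (49.3% lower), 9763 with centred arrays (46.0%), 8970 with the authors' series table (49.7%), 9777 without masking (49.0%), 3106 with the slide row block, and 5017 with the replicate block. Leaving out arrays gave 3708 to 12318 (59.7% lower without silenced replicate 4). Of 49 pathway genes, 6 were called, and 12 with the 75th percentile, 21 with cyclic loess, 22 with centred arrays, 18 with the authors' series table, 20 without masking, 11 when spots not well above background were masked, 7 with the replicate block, 4 (1 higher, 3 lower) with the slide row block, and 6 to 20 when arrays were left out (11 without control replicate 3 or without silenced replicate 4). Of the probe pairs of 5 genes, 3 passed the exact permutation test without adjustment, 2 of them with a probe not well above background in a group, and 1 passed when spots not well above background were masked and 0 to 3 when arrays were left out. Adjusted over the pairs, 3 passed, 0 with that mask, and 0 in each setting that left out arrays except silenced replicate 2 alone (3). With 3 arrays a group the exact test cannot pass the threshold.

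Some changes turned sign, most of them near 0. The downstream Ulk2 probe gave 0.17 with cyclic loess, 0.21 with centred arrays, 0.21 with the authors' series table, 0.20 without masking, 0.018 without control replicate 3, 0.14 without silenced replicate 4 (-0.28 to 0.14 over single arrays left out) and 0.23 without both. The bright Gabarap probe gave 0.018 with the 75th percentile, 0.0012 with cyclic loess, 0.11 with centred arrays, 0.012 without masking, -0.30 to 0.094 when 1 array was left out (highest without silenced replicate 4) and 0.063 without both arrays. The dimmer Gabarap probe A_55_P2000718 gave 0.0029 with cyclic loess. The other, A_55_P2717239, gave -0.20 (without silenced replicate 1) to 2.29 over single arrays left out. The Gabarap pair gave 0.0017 with cyclic loess and 0.0095 with the authors' series table. Larger changes turned when the tested probe nearest the 3′ end by genome coordinate was read, where Atg2b gave 0.16, Bcl2 0.095 and Bcl2l1 -1.38. That Bcl2l1 probe overlaps the brightest one in the genome and has the lower transcript base (1419 against 2563), so it is not settled which is nearer the 3′ end. The causes were not tested. Of 505 alternative values for 24 changes, 422 kept direction and call, 29 lost the call, 36 gained one and 18 turned sign. Pvt1 stayed called, from -3.12 to -2.19. Where a group's arrays all lay near background, only a bound was possible.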
